A study of Oryza sativa with 24 samples.

Results

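Young panicles of rice carrying edited tps2, tps3 and tps6 genes were compared with wild-type panicles at stage 5, when the pollen mother cells form. Both genotypes were Oryza sativa indica cv. IR64, and the mutant, labelled tps2/tps3/tps6 triple mutant, was in that same background. The comparison used the 6 columns labelled with this stage, 3 per genotype, of the 24 columns in the series, and those 6 were fitted alone. The series' design text calls the replicates independent biological ones. The edited alleles, the number of edited lines and how many plants went into a library are not stated in the sources used. All plants were grown in chambers under 12-hour days, and each library was made from total RNA of whole young panicle tissue, so a gene's level is an average over every cell type of that tissue. In such bulk libraries, fewer cells of a type and less RNA per cell cannot be told apart.

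Trehalose phosphate synthases are the family that makes trehalose 6-phosphate, a sugar phosphate that reports sucrose supply to plant cells and restrains the energy-sensing kinase SnRK1. In plants only some members have clear synthase activity, and most of the others, the class II proteins to which rice TPS2, TPS3 and TPS6 belong, are regarded as regulatory. Pollen mother cells are the diploid cells of the anther that go on to meiosis, and they depend on sugar delivered through the surrounding anther wall. The deposited table names genes only by IR64 identifiers, none of which matched the reference table used for names, so no gene is given a function here. The edited genes were for the same reason not checked by name, and the tissue label was not checked against marker genes.

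The 6 libraries were alike in depth and breadth. Totals were 11932967, 11398861 and 11492415 counts in mutant replicates 1 to 3, and 11562157, 12011796 and 11571939 counts in wild-type replicates 1 to 3. A mean of 23095 ± 96.4 genes (SD, n = 3) had a count in the mutant and 23306 ± 228 (SD, n = 3) in wild type, an order that did not pass an exact two-sided permutation test (p = 0.2, where 3 against 3 cannot go below 0.1). The 100 most abundant genes held 11.8% of counts in both genotypes (exact p = 1). The common biological coefficient of variation was 18.5%.

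Wild-type replicate 1 stood apart from its own group. On log2(CPM + 1), where CPM is the count scaled to the TMM-normalized library size, its correlations across genes with the 3 mutant libraries were 0.981, 0.98 and 0.981. Its correlations with wild-type replicates 2 and 3 were lower, at 0.96 and 0.969. The mutant libraries correlated with each other at 0.984 to 0.988. The first principal component of the 6 libraries, with 43.3% of the variance, placed wild-type replicate 1 at -19.8, between mutant scores of -16.3, -21.7 and -17.5, and placed wild-type replicates 2 and 3 at 42.7 and 32.6. Its total, number of genes detected and share of counts in abundant genes lay within the range of the other 5 libraries. What sets this library apart was not tested. The number of genes passing the test, the typical size of difference and some other counts are given with and without this library. Counts of genes with non-overlapping groups, results by expression level and those for the most abundant genes are given only with it. The same holds for the counts of genes found in one genotype alone by reads summed over its libraries. How far this library moved those results was not tested.

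At stage 5, 7 of 19504 genes tested passed a Benjamini-Hochberg adjusted p under 0.05 in edgeR's quasi-likelihood test, 0.0359% of the genes. Of these, 3 were higher in the mutant (0.0154%) and 4 were lower (0.0205%). The sizes ran from a gene that was all but silent in wild type and well expressed in the mutant to differences somewhat under 2-fold. The groups of all 7 genes did not overlap. Across all genes tested, the groups did not overlap for 1794 genes higher in the mutant (9.2%) and 1517 lower (7.78%), so lack of overlap by itself was common. A random order of the libraries would give 5% in each direction. The shares were not tested against that value, since genes vary together.

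**Figure D1:**
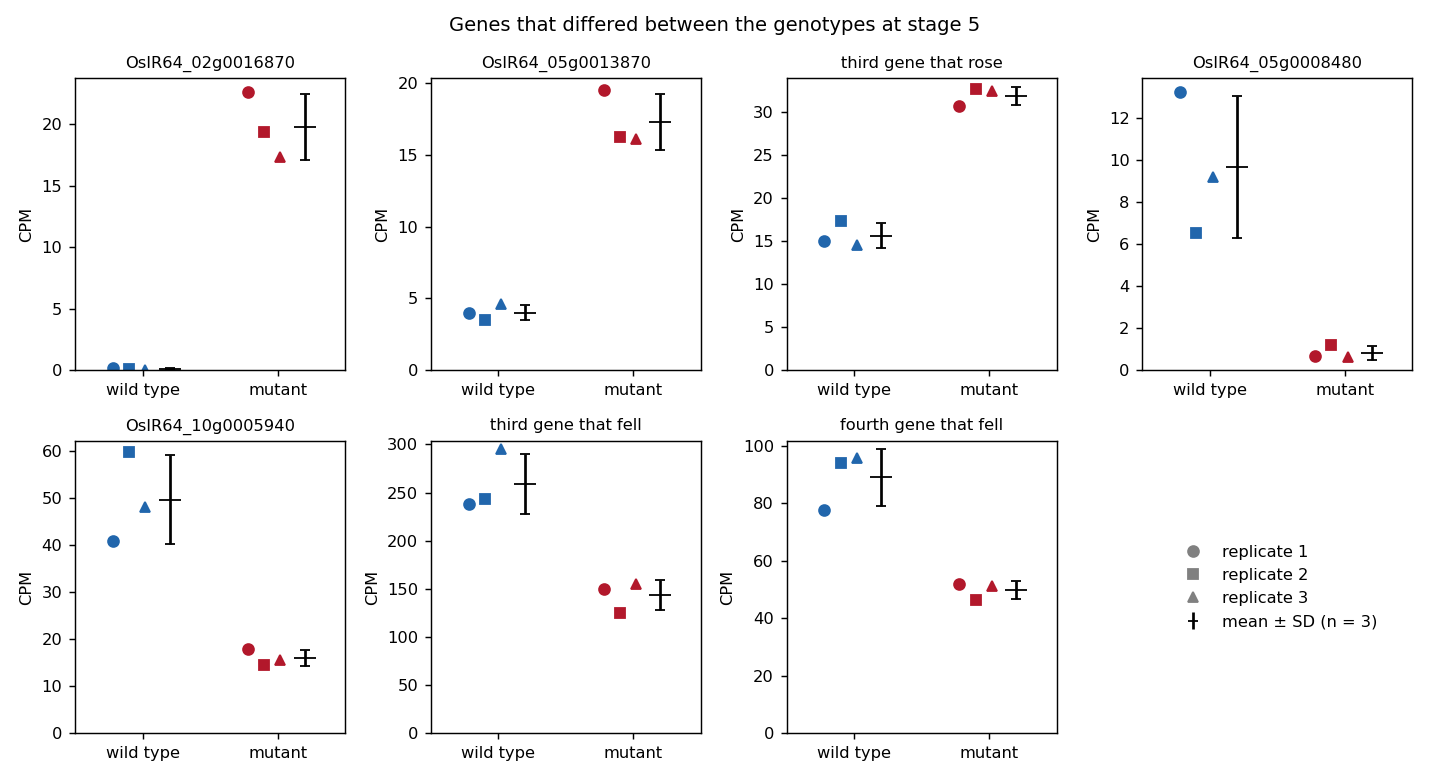
CPM of the 7 genes that passed the test, 1 panel a gene, in the 3 wild-type (blue) and 3 mutant (red) libraries of stage 5; points are libraries and bars the group means ± SD. In every panel the 3 mutant libraries lie wholly to one side of the 3 wild-type libraries.

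OsIR64_02g0016870 rose most. It stood at 22.6, 19.4 and 17.3 CPM in mutant replicates 1, 2 and 3 and at 0.172, 0.0836 and 0 CPM in wild-type replicates 1, 2 and 3. Every mutant library thus held a moderate level, and the wild-type libraries held next to nothing. In counts, the mutant had 272, 223 and 198 reads and wild type 2, 1 and 0. The means were 19.8 ± 2.66 CPM against 0.0852 ± 0.0860 CPM (SD, n = 3 each). The 693 summed counts in the mutant against 3 in wild type give a ratio of 231, with a 95% exact interval of 78.6 to 1121 that covers counting error only. The fitted log2 fold change was 7.68 (SE 0.44, edgeR quasi-likelihood adjusted p = 1.86e-06), a value that depends on how a count near 0 is handled and was 8.53 without wild-type replicate 1.

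The gene next to it in identifier order had the same on-and-off pattern at a lower level, and was looked at after the values of OsIR64_02g0016870 were seen. It had 8, 16 and 14 counts in the mutant libraries and 0 in each wild-type library, too few to enter the test. With the floor of 3 counts taken over the group, it was at least 12.6-fold higher in the mutant. Of the 53 genes with a count in each mutant library and 0 in each wild-type library, it had the highest total, 38 counts. At the later stages it had 27 and 19 counts in the mutant at stage 6, 16 at stage 7, and 0, 0 and 9 at stage 8, while all 9 wild-type libraries of the 4 stages were at 0. If these 2 neighbours are near-identical in sequence, the reads may have been split between them, which the files do not show.

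OsIR64_05g0013870 was the second gene that rose. Its levels were 19.5, 16.3 and 16.1 CPM in the mutant and 3.95, 3.51 and 4.6 CPM in wild type. Unlike the first gene, it was plainly present in wild type, and the groups were far apart beside their small spread. The means, 17.3 ± 1.93 and 4.02 ± 0.549 CPM (SD, n = 3), stood in a ratio of 4.3. The log2 fold change was 2.10 (SE 0.23, 95% interval 1.6 to 2.6, edgeR quasi-likelihood adjusted p = 0.00243).

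The third gene that rose stood at 30.7, 32.6 and 32.4 CPM in the mutant against 14.96, 17.3 and 14.6 CPM in wild type. Both groups were tight, and the mutant was at 2.04 times the wild-type mean. Its log2 fold change was 1.03 (SE 0.16, edgeR quasi-likelihood adjusted p = 0.0381).

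Among the genes that fell, OsIR64_05g0008480 changed most. It stood at 0.665, 1.22 and 0.613 CPM in the mutant and at 13.2, 6.52 and 9.2 CPM in wild type. The mutant kept only a trace, and the highest wild-type library was well above the lowest. The counts were 8, 14 and 7 against 154, 78 and 104. The wild-type mean, 9.65 ± 3.38 CPM (SD, n = 3), was 11.6 times the mutant mean of 0.832 ± 0.336 CPM (SD, n = 3). The log2 fold change was -3.52 (SE 0.41, 95% interval -4.40 to -2.64, edgeR quasi-likelihood adjusted p = 0.00334).

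OsIR64_10g0005940 fell to 17.95, 14.4 and 15.5 CPM in the mutant from 41.0, 59.9 and 48.2 CPM in wild type. It remained moderately expressed in the mutant, below the lowest wild-type library by a wide margin. The wild-type mean of 49.7 ± 9.54 CPM was 3.12 times the mutant mean of 15.96 ± 1.8 CPM (SD, n = 3 each). The log2 fold change was -1.64 (SE 0.17, 95% interval -2.01 to -1.27, edgeR quasi-likelihood adjusted p = 0.00188).

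The other genes next to the called ones in identifier order were looked at as well. Of the 14 neighbours of the 7 genes, 6 had enough counts to be tested, and none of the 6 passed. Over all genes tested 0.0359% passed, so this count says little about whether neighbours moved with the called genes. Several of the untested neighbours had no count in any of the 6 libraries. Those before OsIR64_05g0013870, before the third gene that rose and before the fourth that fell had log2 fold changes of 0.11, -0.09 and 0.24. The gene before OsIR64_02g0016870 had 0, 2 and 0 counts in the mutant and 2, 2 and 1 in wild type.

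The genes on both sides of OsIR64_10g0005940 in identifier order had lower counts in the mutant as well, and neither passed the test. The gene before it had 6, 1 and 3 counts in the mutant and 28, 90 and 33 in the wild-type libraries (log2 fold change -3.86, SE 0.69, edgeR quasi-likelihood adjusted p = 0.0833). The gene after it had 86, 31 and 54 against 172, 116 and 114 counts (-1.24, SE 0.33, adjusted p = 0.236 in the same test). Both sets of counts were separate between the genotypes at stage 5, but not at every later stage. The gene before overlapped at stage 8, with 0, 0 and 4.5 CPM in the mutant and 10.1, 2.78 and 3.45 CPM in wild type. The gene after overlapped at stage 6, with 6.59 and 3.72 against 8.82 and 5.44 CPM. By contrast, the gene after OsIR64_05g0008480 had more counts in the mutant at stage 5, with 271, 348 and 306 against 212, 172 and 157 (log2 fold change 0.77, SE 0.18, edgeR quasi-likelihood adjusted p = 0.195). Its groups overlapped at stages 6 and 8. Counts of such neighbours may be shared among near copies or overlapping genes, since no source used here states the strand setting.

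The remaining genes that fell were the most abundant of the 7 and had the smallest changes. The third stood at 150, 125 and 155 CPM in the mutant, and wild type at 238, 244 and 295 CPM (log2 fold change -0.85, SE 0.12, edgeR quasi-likelihood adjusted p = 0.0263). The fourth stood at 52.0, 46.4 and 51.3 CPM against 77.7, 94.0 and 95.6 CPM (-0.84, SE 0.12, adjusted p = 0.0336 in the same test). Wild type was at 1.81 and 1.79 times the mutant mean, respectively.

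The 4 named genes with the largest changes were the steadier part of these calls. OsIR64_02g0016870 and OsIR64_10g0005940 each passed in 15 of 17 alternative fits, OsIR64_05g0013870 in 14 and OsIR64_05g0008480 in 12. The third gene that rose, the third that fell and the fourth that fell passed in 6, 8 and 6. None of the 7 passed when the spread was estimated together with libraries of other stages, where edgeR called 0 genes, with 1127 at an unadjusted p under 0.05 over all stages and 1047 over stages 5 and 8. The count of genes called was also 2, 4 and 3 when mutant replicate 1, 2 or 3 was left out, and 5 when either wild-type replicate 2 or 3 was. Wild-type replicate 1 moved it the other way, as given below.

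With all 6 libraries, the typical difference outside these genes was small, and wild-type replicate 1 decided how many genes stood out. The median log2 fold change over the 19504 genes was -0.01 and the median absolute value 0.18, with a 90th percentile of 0.62. The 95% interval lay within a 2-fold change either way for 14407 genes (73.9%) and within 4-fold for 93.9%. The unadjusted p was under 0.05 for 2268 genes (11.6%), of which 1112 were higher and 1156 lower in the mutant. Those past that mark and over 2-fold apart leaned to one side, with 127 higher and 302 lower in the mutant. At an adjusted p under 0.1 there were 24 genes, 8 higher and 16 lower. Without wild-type replicate 1 the median absolute log2 fold change was 0.24 and the 90th percentile 0.84, and 68.9% of intervals lay within 2-fold. The unadjusted p was then under 0.05 for 4154 genes (20.8%), with 344 higher and 671 lower among those over 2-fold, and the adjusted p under 0.1 for 1881.

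**Figure D2:**
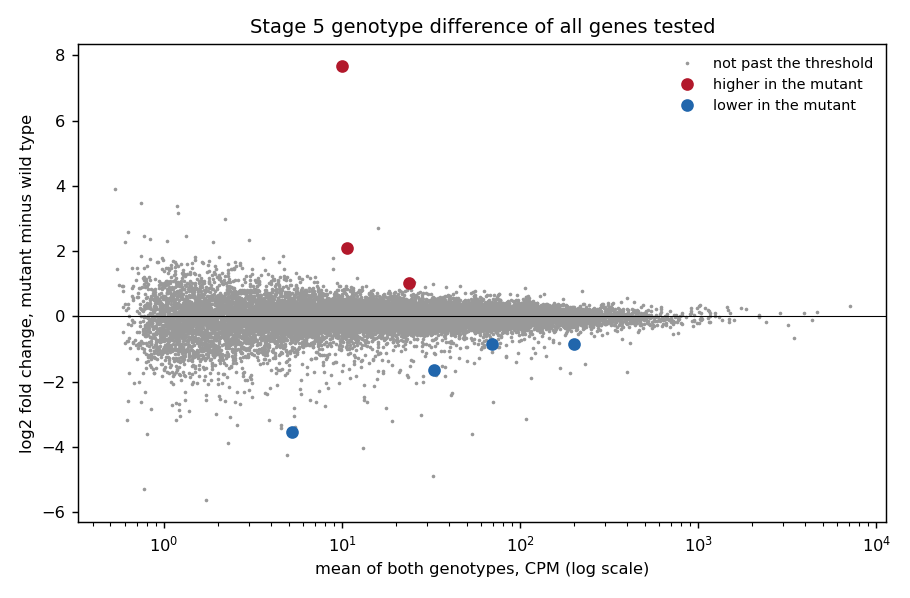
Log2 fold change (mutant minus wild type) of every gene tested at stage 5 against its mean CPM on a log scale, with the 7 genes that passed the test in colour. Most genes lie close to 0 and the scatter widens at low levels. OsIR64_02g0016870 lies highest, at 7.68. OsIR64_05g0008480, at -3.52, has genes that were not called both above and below it.

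How small a difference could be seen depended on the level. Among 3732 genes at 1 to 5 CPM, the half-width of the 95% interval had a median of 1.07 on the log2 scale, and 11.8% of the intervals lay within 2-fold. Among 8006 genes at 20 to 100 CPM the half-width was 0.32 and the share 96.9%. For most genes under 5 CPM, the interval therefore reached past a 2-fold change in some direction. At these levels 0 of the 3732 genes, and 0 of 425 under 1 CPM, were called. The 100 most abundant genes, with 11.7% of all counts, had log2 fold changes from -0.66 to 0.34. None of those 100 was called, the smallest edgeR quasi-likelihood adjusted p being 0.0833, and 20 had an unadjusted p under 0.05.

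Counts in one genotype alone were rare and low. With at least 10 counts required in every library of one genotype and 0 in every library of the other, 0 genes qualified in either direction. With at least 1 count in every library, 53 genes were found in the mutant and not in wild type, and 61 in wild type and not in the mutant, at totals of at most 38 and 59 counts over the 3 libraries. With at least 10 counts over the 3 libraries together, the numbers were 37 and 123. Without wild-type replicate 1, the counts of genes with at least 1 read in every library of one genotype alone were 124 in the mutant and 209 in wild type. With at least 10 counts in every library, they were then 0 and 4. Leaving out a wild-type library loosens these rules, so the counts could only stay or rise. Some genes not called came close to this pattern with a read or 2 on the other side. The widest difference among genes not called had 0, 0 and 2 counts in the mutant and 15, 47 and 55 in the wild-type libraries (log2 fold change -5.63, SE 0.94, edgeR quasi-likelihood adjusted p = 0.0668). The next had 0, 1 and 0 counts against 25, 17 and 11 (-5.28, SE 1.04, adjusted p = 0.118 in the same test).

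Leaving out wild-type replicate 1 changed the picture. With wild-type replicates 2 and 3 against the 3 mutant libraries, 1041 of 19962 genes passed the same edgeR test (5.21%), 357 higher and 684 lower in the mutant. Of these, 458 differed over 2-fold, 94 higher and 364 lower. All 7 genes called with the 6 libraries were among them. The wild-type side of this fit rests on 2 libraries, which lay on the same side of the first principal component.

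The left-out library can be placed on a scale for each of these genes, with the mutant mean at 0% and the mean of wild-type replicates 2 and 3 at 100%. Of the 989 genes that were also tested with all 6 libraries, wild-type replicate 1 was nearer the mutant mean for 818 (82.7%) and nearer the other wild-type libraries for 171 (17.3%). Its median position was 12.5%, with quartiles of -12.6% and 39%. The same was done for each library in turn with the 1000 genes of smallest p when it was left out. Mutant replicates 1, 2 and 3 then lay nearer their own genotype for 63.9%, 84.9% and 80.2% of genes, and wild-type replicates 2 and 3 for 57.7% and 72.4%. In each of these placements the wild-type mean included wild-type replicate 1. That library itself lay nearer its own genotype for 17.5%, against a wild-type mean without it, so the shares are not wholly alike.

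At the 7 genes called with all 6 libraries, wild-type replicate 1 stood with its own genotype. Its position was 96% at OsIR64_02g0016870, 101% at OsIR64_05g0013870 and 131% at OsIR64_05g0008480. OsIR64_10g0005940 gave 77.5%, and the other called genes gave 109%, 80.9% and 69%. These genes had passed a test that included the library, so its placement at them is a description. With 272, 223 and 198 counts of OsIR64_02g0016870 in the mutant libraries and 2 in wild-type replicate 1, that library was close to the other wild-type libraries, with 1 and 0.

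**Figure D3:**
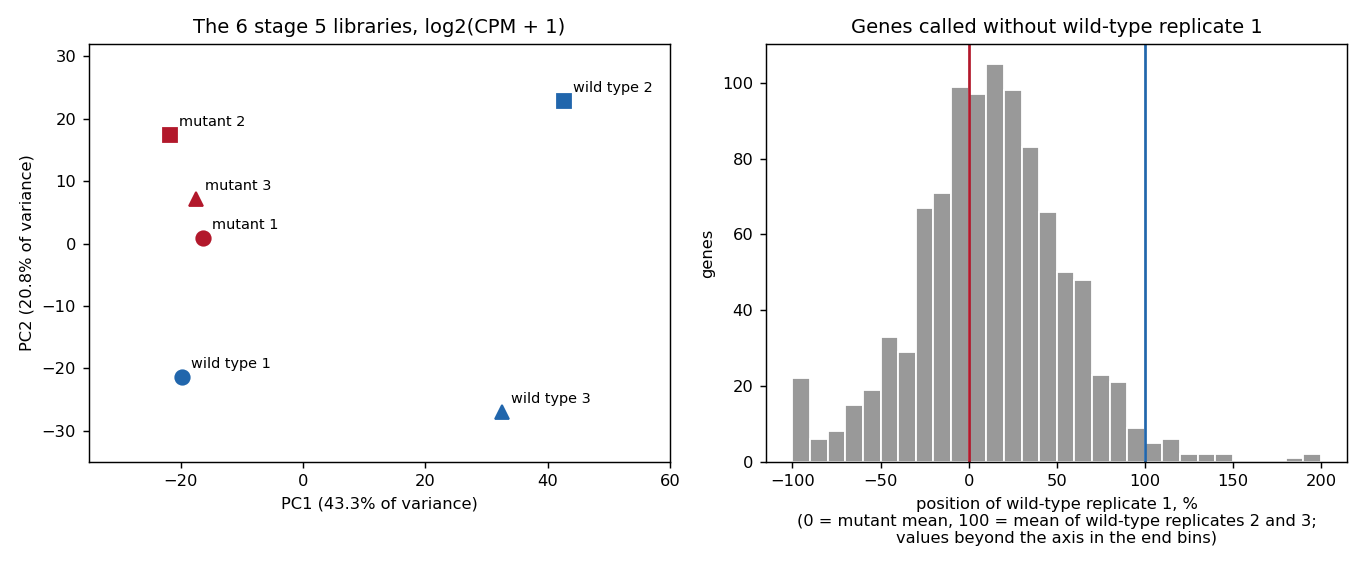
Left, scores of the 6 libraries on the first and second principal components of log2(CPM + 1), in which wild-type replicate 1 lies with the mutant libraries on the horizontal axis. Right, the position of wild-type replicate 1 (0% at the mutant mean, 100% at the mean of wild-type replicates 2 and 3) for genes called without it, where the counts are highest near 0%.

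Among genes with at least 5 CPM, the widest differences that did not pass the test lay mostly between the wild-type libraries themselves. Genes not called that were over 4-fold apart between the genotypes, with that mean level in the higher group, numbered 41. Of these, 39 were higher in wild type. They were chosen after the values were seen and are described without a test of the set. Taking large changes that did not pass favours genes with a wide spread inside a group, so the spread at stage 5 follows in part from the choice. In all 39, wild-type replicates 2 and 3 both exceeded the 4 other libraries, and replicate 2 exceeded replicate 3 in 34. Wild-type replicate 1 lay within the range of the mutant libraries for 22, below it for 9 and above it for 8.

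The gene with the widest such gap stood at 1.66, 2.44 and 2.19 CPM in the mutant and at 1.72, 106 and 79.4 CPM in wild-type replicates 1, 2 and 3. A more abundant one stood at 11.1, 25.9 and 29.1 CPM against 21.6, 351 and 212 CPM. In both, replicate 1 lay within the range of the mutant libraries, whereas replicates 2 and 3 were an order of magnitude higher. The log2 fold changes were -4.89 (SE 1.62, edgeR quasi-likelihood adjusted p = 0.399) and -3.15 (SE 1.16, adjusted p = 0.429 in the same test).

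The summed level of these 39 genes at stage 5 was 139, 193 and 180 CPM in mutant replicates 1 to 3 and 159, 1976 and 1288 CPM in wild-type replicates 1 to 3. In libraries that played no part in choosing them, the sum also varied within a genotype. The wild-type libraries of stage 6 stood at 265 and 3199 CPM, and the mutant libraries of that stage between them at 614 and 731 CPM. At stage 7 the single mutant library stood at 2474 CPM and the single wild-type library at 2189 CPM. At stage 8 the mutant libraries stood at 645, 574 and 1658 CPM, all below wild type at 2063, 3234 and 2163 CPM. The sum was thus low in some libraries and high in others of the same genotype, most clearly in wild type at stages 5 and 6. Between stages 6 and 8, over both genotypes, 8 of all 41 genes rose over 2-fold and 3 fell, of which 3 and 1 passed the edgeR test of that change. By the same rule, 10.4% of all genes tested rose and 11.4% fell. The 2 genes of the 41 that were higher in the mutant were both among those that fell, including the 1 that passed. What separates the libraries was not tested.

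**Figure D4:**
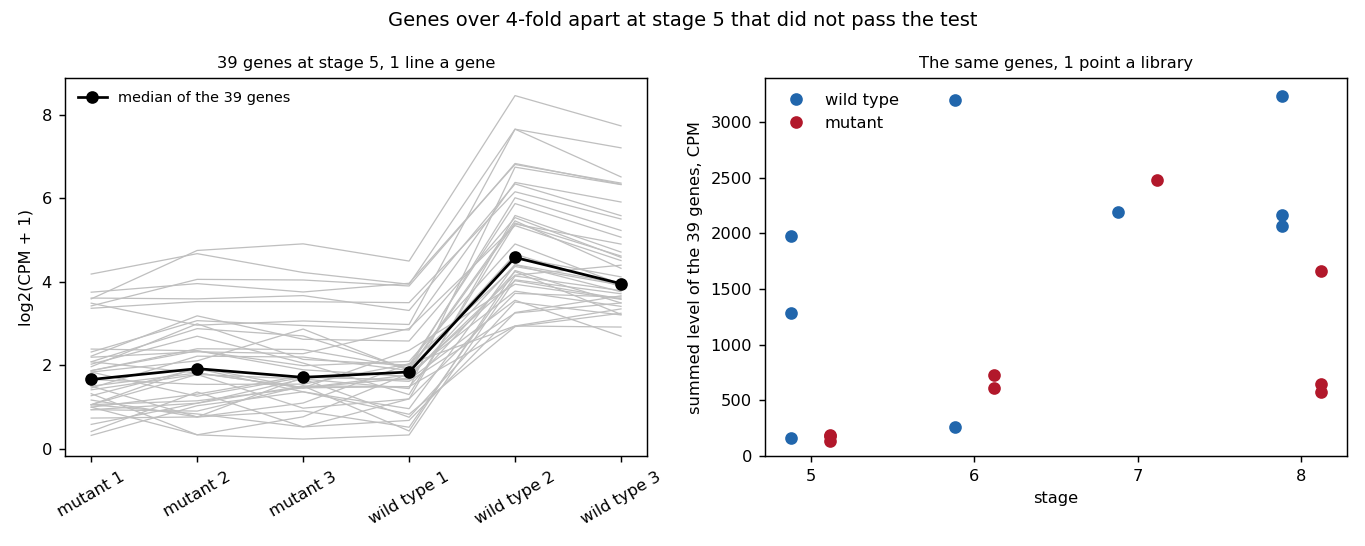
Left, log2(CPM + 1) at stage 5 of the 39 genes over 4-fold higher in wild type that did not pass the test, 1 grey line a gene and their median in black. Right, their summed CPM in each library of resolved genotype by stage; wild-type replicate 1 of stage 5 lies with the mutant at 159 CPM, and the wild-type libraries of stage 6 lie at 265 and 3199 CPM.

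The genes called without wild-type replicate 1 were compared with libraries of other stages, which share no sample with stage 5. At stage 6, with 2 libraries of resolved genotype each, 88.8% of them differed in the direction seen at stage 5, against 63.7% of all genes tested. At stage 8 the shares were 77.3% and 57.6%. Genes that vary together can take their direction from 1 library, so these shares do not count independent agreements. The wild-type libraries of stage 6 were themselves far apart in the sum of the 39 genes above, at 265 and 3199 CPM. Whether the shares follow genotype was not tested. The genes were also set against those that changed over 2-fold between stages 6 and 8 at an edgeR adjusted p under 0.05, 4072 that rose and 2340 that fell. Of the genes lower in the mutant, 13.5% were in the rising set and 16.7% in the falling set. Of those higher in the mutant, 3.95% and 24.3% were, against 10.4% and 11.4% of all genes tested.

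The share of all counts in the rising set was 2.75%, 2.66% and 2.59% in the mutant libraries of stage 5 and 2.93%, 2.95% and 2.75% in wild type, and 1 wild-type library lay just below the highest mutant library. The difference did not pass an exact two-sided permutation test (p = 0.2). The falling set held 18.2% ± 0.236 in the mutant and 17.9% ± 0.456 in wild type (SD, n = 3; exact p = 0.4). Wild-type replicate 1 lay with its own genotype in the rising set.

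The 7 called genes were followed through the later stages in the libraries of resolved genotype, 9 per genotype over the 4 stages. Of the 12 columns of stages 6 and 7, 6 held 3 libraries with identical values under both genotypes, and these were left out of each comparison. CPM in the next paragraphs were scaled over all libraries and so differ slightly from those above. In 5 of the 7, the 4 named genes and the fourth that fell, the 9 mutant libraries did not overlap with the 9 wild-type libraries at all. Over the 19504 genes tested, the same held for 9 (0.0461%), so 5 of those 9 were called genes; the stage 5 libraries among them had chosen these genes. In stages 6 to 8 alone, with 6 libraries per genotype that played no part in the calls, the same 5 of 7 were apart, against 39 of the 19504 (0.2%). The third gene that rose overlapped at stages 6 and 8, and the third that fell overlapped at stage 8.

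OsIR64_02g0016870 stayed on in the mutant at every stage. At stage 6 it was at 17.6 and 19.2 CPM in the mutant against 0 and 0.0797 CPM in wild type, and at stage 7 at 33.6 against 0.0891 CPM. At stage 8 the mutant libraries spread widely, at 9.2, 1.79 and 47.5 CPM, and wild type stood at 0.477, 1.28 and 1.06 CPM. The lowest mutant library of stage 8 was thus close to wild type, which itself was somewhat above its level at stage 5.

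OsIR64_05g0013870 had its highest mean at stage 5 in both genotypes and stayed higher in the mutant. In wild type its mean went from 3.87 CPM at stage 5 to 2.51 at stage 6, 0.802 at stage 7 and 1.21 ± 0.581 at stage 8. In the mutant the means were 16.6, 9.23, 9.32 and 10.1 ± 3.51 CPM. The wild-type fall from stage 5 to stage 8 passed the test (log2 fold change -1.70, SE 0.41, edgeR quasi-likelihood adjusted p = 0.00379).

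OsIR64_05g0008480 was present in wild type throughout, with means of 9.29, 6.62, 7.13 and 8.41 CPM at stages 5 to 8. In the mutant it stood at 0.796, 0.425, 0 and 2.23 CPM, and its highest mutant library, 3.58 CPM at stage 8, was still below the lowest wild-type library. OsIR64_10g0005940 was at 47.8, 39.8, 56.6 and 62.9 CPM in wild type and at 15.3, 15.02, 5.74 and 16.9 CPM in the mutant. The fourth gene that fell kept means of 85.8 to 116 CPM in wild type and 42.0 to 54.9 CPM in the mutant.

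The 2 other called genes had lower means at stage 8 than at stage 5 in both genotypes, and their groups overlapped at stage 8. The third gene that rose went from 30.5 to 7.08 CPM in the mutant and from 15.01 to 5.99 CPM in wild type between stages 5 and 8. The third that fell went from 137 to 90.4 CPM and from 249 to 107 CPM, respectively. The wild-type changes passed the test, with log2 fold changes of -1.36 (SE 0.40, edgeR quasi-likelihood adjusted p = 0.012) and -1.25 (SE 0.22, adjusted p = 0.000424 in the same test). Over all genes, 11228 of 22883 (49.1%) changed in wild type between these stages.

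**Figure D5:**
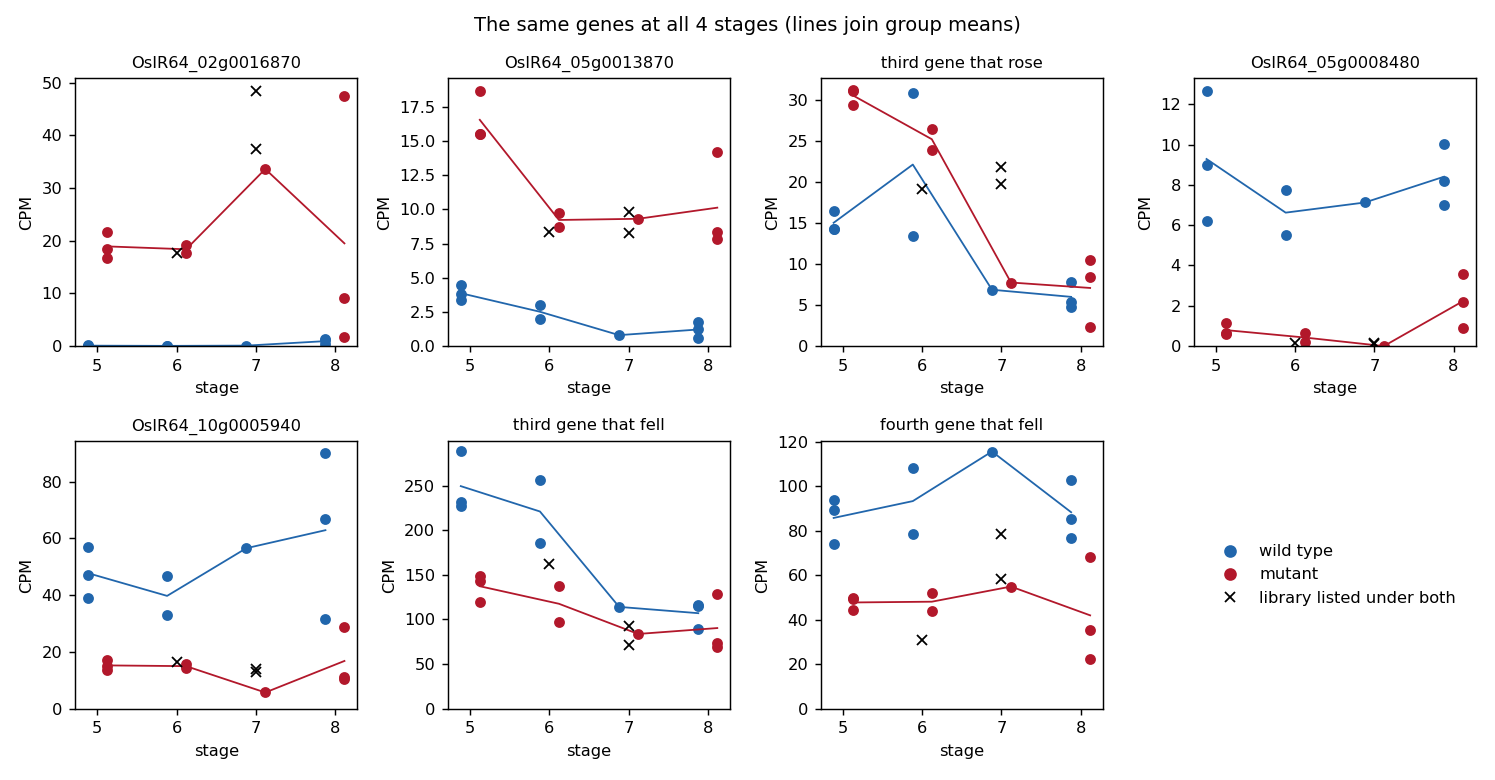
CPM of the 7 genes called at stage 5 in each library at stages 5 to 8, with wild type in blue, mutant in red, lines through group means, and crosses for the libraries listed under both genotypes. The colours stay apart at all 4 stages for the 4 named genes and the fourth gene that fell.

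At stage 8, fitted on its own 6 libraries, the direction of all 7 genes was that of stage 5. None passed the adjusted threshold, and nor did any other of 21951 genes (0%), although 1719 had an unadjusted p under 0.05. The difference was 3.08 for OsIR64_05g0013870 (SE 0.56, edgeR quasi-likelihood adjusted p = 0.595) and 4.36 for OsIR64_02g0016870 (SE 1.17, adjusted p = 0.595 in the same test) on the log2 scale. It was -1.88 for OsIR64_10g0005940 (SE 0.50) and -1.89 for OsIR64_05g0008480 (SE 0.56). Mutant replicate 3 of stage 8 decided this count, and without it 976 genes passed.

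Whether the genotype difference changed between stages 5 and 8 was tested as an interaction over the 12 libraries, and 0 of 22883 genes passed (0%) in edgeR, with 1464 at an unadjusted p under 0.05. The difference of OsIR64_05g0008480 was smaller at stage 8 by 1.62 on the log2 scale (SE 0.71, unadjusted p = 0.0391, edgeR quasi-likelihood adjusted p = 0.766). That of OsIR64_02g0016870 was lower by 3.31 (interaction -3.31, SE 1.65, adjusted p = 0.781 in the same test). Without mutant replicate 3 of stage 8 the count was 429, and the interaction of OsIR64_02g0016870 was -5.16 with an adjusted p of 0.0281.

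The identifiers of the 7 genes carry the series numbers 02, 05, 08, 10 and 11. Of the 1632 genes tested in the 05 series 3 were called, and 1 each was called in the 4 other series. No position in the genome is given, because no IR64 annotation was used here.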

How the data were processed

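Per the series' design text, total RNA was extracted with TRIzol and sequenced as read pairs on a NovaSeq, and the authors mapped trimmed pairs to the IR64 genome with STAR and counted them with HTSeq-count. The deposited values are whole-number counts per gene, not normalized. Trimmomatic 0.39 and kallisto are in the submitters' processing notes. No source used here states the role of kallisto, the annotation version, the strand setting or the handling of reads shared by near copies. The design text mentions conversion to TPM, which was not used here. The table held 36099 identifiers, of which 26371 had a count in the 6 libraries. None (0) matched the 39387 genes of the reference table, which is of another rice assembly, so lists of trehalose, sugar and marker genes held no gene and gave no test.

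The comparison, the genes followed and every alternative were chosen with earlier results of these data known. Counts of the 6 stage 5 libraries were fitted alone in edgeR 4.0.16 (R 4.3.3) with TMM scaling, filterByExpr on the 2 genotypes, which kept 19504 genes, and robust glmQLFit and glmQLFTest. The fit had 4 residual degrees of freedom, and p-values were adjusted by Benjamini-Hochberg over all genes tested. Calls are at an adjusted p under 0.05. The SE is the size of the log2 fold change divided by the square root of F. Identifiers are given for the 2 called genes each way with the largest fitted change, provided that the libraries of the genotypes did not overlap and the higher genotype averaged at least 5 CPM; all 7 called genes are described. Stage 8 and the interaction were fitted in the same way on 6 and 12 libraries. Totals of 11398861 to 12011796 counts limit the precision of low genes, and intervals on summed counts cover counting error only. Alternatives were other scalings, filters and tools (DESeq2 1.42.0, limma-voom in limma 3.58.1), a minimum fold of 1.5, the libraries of other stages, a replicate block and leaving out each library. The procedure was also run on counts simulated with a common spread and no library set apart from its group. That run does not cover a library such as wild-type replicate 1.

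Of the 24 columns, 3 pairs (stage 6 replicate 3, stage 7 replicates 2 and 3) held identical values under both genotypes, and these 3 libraries entered no comparison. No pair of columns at stage 5 was identical. The labels do not link equal replicate numbers across genotypes.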

Additional observations from a re-analysis of the deposited data

Results flagged for a closer look

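The 3 libraries listed under both genotypes, which entered no comparison, held OsIR64_02g0016870 well above the wild-type level, and so are set out here. It stood at 17.62 CPM in the library of stage 6 replicate 3, at 48.4 CPM in that of stage 7 replicate 2 and at 37.45 CPM in that of stage 7 replicate 3. Libraries of resolved genotype stood at 17.6 and 19.2 CPM in the mutant and 0 and 0.0797 CPM in wild type at stage 6, and at 33.6 and 0.0891 CPM at stage 7. Over the 7 genes called at stage 5, these libraries were nearer the mutant mean of their stage for 5, 7 and 7 genes, in that order. No genotype was assigned to them from these values.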

How the results depend on the processing

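The 7 genes called at stage 5 remained 7 in number with RLE or upper-quartile scaling or a stricter filter. The number was 79 with no low-count filter, 179 in DESeq2, 12 with the replicate block, 4 without robust fitting, 4 at a minimum fold of 1.5, 3 in limma-voom, and 0 with the libraries of stages 5 and 8 or all libraries of resolved genotype in the fit; leaving out 1 library gave 2 to 1041, the highest without wild-type replicate 1. The share of intervals within 2-fold, 73.9%, was 55.1% with no filter, 89.5% with a stricter filter, 54.5% with all libraries of resolved genotype, 56.5% with those of stages 5 and 8, and 66.8% to 71.5% with 1 library left out. Deviations from the group means correlated at -0.0073, 0.0816 and 0.0828 between libraries of equal replicate number. Between libraries of unlike number they correlated at -0.1491 to 0.0632. With 3 libraries per genotype these values cannot settle whether equal numbers were paired. Of the 12 genes called with the block, 5 were among the 7. At stage 8 the count of 0 became 1 with no filter and 0 to 976 with 1 library left out, and the interaction 0 to 429. No stage 5 fold change of the 7 genes turned its sign. At stage 8 the third gene that rose ranged from -0.15 to 0.65 with 1 library left out, and was below 0 without mutant replicate 3. The interaction of OsIR64_10g0005940 ranged from -0.89 to 0.11 with 1 library left out, and was above 0 without stage 8 mutant replicate 1 (0.0026) or wild-type replicate 3. That of the fourth gene that fell ranged from -0.77 to 0.076, and was above 0 without stage 8 mutant replicate 2. The wild-type change from stage 5 to 8, near 0 for the fourth gene that fell, turned to -0.0013 with no filter, -0.0077 with the replicate block, and ranged from -0.11 to 0.13 with 1 library left out, below 0 without stage 5 replicate 1 or stage 8 replicate 3. That of OsIR64_05g0008480 ranged from -0.40 to 0.11, above 0 without stage 5 replicate 1. The cause was not tested.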

Other observations

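The gene next in order of p after the 7 called at stage 5 stood at 275, 261 and 277 counts in the mutant libraries and at 668, 608 and 413 in wild type, in groups that did not overlap (log2 fold change -1.05, SE 0.17, edgeR quasi-likelihood adjusted p = 0.0598). At stage 8 its fitted log2 difference was -1.99, with an unadjusted edgeR p of 1.54e-05. No gene passed the adjusted threshold in the main fit of that stage. The most abundant of the genes at an adjusted p under 0.1 had 28372, 31533 and 33130 counts in the mutant against wild-type counts of 41400, 52213 and 53643. The log2 fold change was -0.66 (SE 0.12, adjusted p = 0.0833 in the same edgeR test) at stage 5 and -0.76 at stage 8. Both were chosen after their values were seen. Some other genes next in order of p had the opposite sign at stage 8. Among them was the gene with the widest difference not called, at -5.63 at stage 5 and 1.02 at stage 8.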
